A study of Mus musculus with 2 samples.

Results

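The 8 genes described here encode the ligand insulin-like growth factor 1 (Igf1), its receptor (Igf1r) and 6 members of the IGF-binding protein group (Igfbp1, Igfbp2, Igfbp3, Igfbp4, Igfbp5 and Igfbp7). They were chosen by symbol, and all 8 were found among the 30970 gene rows of single-cell RNA sequencing matrices from mouse yolk sacs at stage E8.75. The study set ciliated yolk sac cell types beside the visceral endoderm lineage, which its design text describes as without cilia. A single genotype was sampled, Ttr-Cre/+; R26lsl-rtTA-EGFP/+, and there was no treated or wild-type group. Every animal thus carried a Cre driven by the transthyretin promoter, active in visceral endoderm, and a Cre-dependent allele for the transactivator rtTA and the fluorescent protein EGFP. The deposited matrices hold 3 samples whose cells were tagged before pooling, called tagged samples 1, 2 and 3.

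Insulin-like growth factors are secreted peptides that act through the receptor tyrosine kinase IGF1R, which signals through insulin receptor substrates to PI3 kinase and AKT. Secreted binding proteins hold the ligands in the extracellular space, where they can keep them from the receptor or bring them to it, and proteases release the ligands again. In the yolk sac, the outer visceral endoderm exchanges nutrients and secretes plasma proteins, while the inner mesoderm layer carries the blood vessels and the first blood cells. IGFBP7 binds IGFs more weakly than the other binding proteins and is known as a protein of vessel walls.

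UMIs (unique molecular identifiers) each stand for a captured transcript. Of 1817 cells, 1740 had 500 genes or more with mitochondrial UMIs making up no more than 10%, and these were kept. Levels are given as CPM, the UMIs of a gene per 1000000 gene UMIs of a tagged sample and class. They were put into classes by the share of their UMIs from a few genes. Endoderm needed Ttr, Apob and Apom at 0.3% or more together, and 419 cells passed. Erythroid cells needed the globin genes at 3% (629 cells), endothelium Cdh5, Ctla2a and Plvap at 0.04% (113 cells), and mesoderm Hand1, Vcan and Foxf1 at 0.03% (197 cells). Cells with 3 or more Cyp26a1 UMIs (159) were set apart, 140 of which also passed the endoderm gate. A further 45 cells passed 2 gates and 178 passed none. The tagged samples contributed 118, 157 and 144 endoderm, 81, 212 and 336 erythroid, 36, 37 and 40 endothelium, and 60, 69 and 68 mesoderm cells.

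The matrices held 22007477, 32890946 and 33114758 gene UMIs, and 0 barcodes were found in more than 1 of them. Median depth per cell was 53656 UMIs in endoderm, 47771 in erythroid cells, 35699 in endothelium and 34944 in mesoderm. Markers outside the gates were highest in the class they mark for 10 of 10 endoderm, 7 of 7 erythroid, 8 of 8 endothelium and 8 of 9 mesoderm genes. Pdgfra was the exception. The mesoderm class also held 18 cells with trophoblast markers at 0.01% of UMIs or more (11, 5 and 2 in tagged samples 1, 2 and 3). The endothelium class held 21 cells with blood progenitor markers at 0.02% or more. The design text describes 3 yolk sacs from 3 embryos, yet each tagged sample held cells called by Xist (181, 259 and 217) and cells called by Y-linked genes (150, 177 and 344). The number of embryos behind each tagged sample is therefore not settled, and p-values measure only the spread between these 3 samples.

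All 8 identifiers matched GENCODE M21 on GRCm38. Igf1 lies on chromosome 10 (87858265 to 87937042), Igf1r on chromosome 7 (67952827 to 68233668), Igfbp4 on chromosome 11 (99041244 to 99054392) and Igfbp7 on chromosome 5 (77349240 to 77408041). The other binding proteins lie in pairs. Igfbp2 (72824503 to 72852474, plus strand) and Igfbp5 (72857932 to 72874884, minus strand) face each other on chromosome 1 with 5457 bases between them. Igfbp1 (7197782 to 7202546, plus strand) and Igfbp3 (7206086 to 7213923, minus strand) do so on chromosome 11 with 3539 bases between them. Igf1 overlaps the antisense gene Igf1os, and Igfbp7 overlaps Polr2b and Gm34648 on the other strand. The sources used here do not give whether the counting used strand.

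The bases before the RefSeq start (GRCm38.p6) are shown for the neighbours Igfbp2 and Igfbp5, which were highest in different classes, and for Igfbp4, which was high in 3 classes. Capitals mark matches to 5 motifs searched on both strands in the 250 bases before the start. The TATA box was searched as TATAAA, which 12.4% of 32851 promoters of this length held. The CAAT box was searched as CCAAT (33.8%), the GC box as GGGCGG (32.7%), a GATA motif as AGATAA (9.99%) and an E-box as CAGCTG (13.0%), and none of these contains another. Igfbp2 is at chr1:72824230-72824479 on the plus strand, Igfbp4 at chr11:99040994-99041243 on the plus strand, and Igfbp5 at chr1:72874885-72875115 on the minus strand. For Igfbp5, 19 bases that GENCODE places in its first exon were left out. For Igfbp2, 2 promoters were listed, and only the window at the position given is shown.
Igfbp2: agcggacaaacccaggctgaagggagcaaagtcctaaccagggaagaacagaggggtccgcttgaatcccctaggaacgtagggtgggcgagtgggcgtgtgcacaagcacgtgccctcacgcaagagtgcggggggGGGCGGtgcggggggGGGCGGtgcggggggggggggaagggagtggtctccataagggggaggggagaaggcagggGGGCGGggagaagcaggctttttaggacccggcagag
Igfbp4: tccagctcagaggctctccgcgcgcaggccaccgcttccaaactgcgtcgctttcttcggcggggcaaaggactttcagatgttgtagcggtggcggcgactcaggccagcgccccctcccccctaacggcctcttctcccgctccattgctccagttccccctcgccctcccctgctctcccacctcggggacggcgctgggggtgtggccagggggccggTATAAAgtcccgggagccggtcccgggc
Igfbp5: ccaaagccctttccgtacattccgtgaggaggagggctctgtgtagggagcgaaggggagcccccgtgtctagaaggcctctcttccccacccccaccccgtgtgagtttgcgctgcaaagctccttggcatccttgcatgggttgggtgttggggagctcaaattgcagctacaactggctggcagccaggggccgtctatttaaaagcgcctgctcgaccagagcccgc
The Igfbp2 window held 3 GC boxes, at 113, 98 and 37 bases before the start, and the Igfbp4 window a TATA box at 28 bases. The Igfbp5 window held none of these letters. A match is only a description of the sequence.

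The ligand Igf1 was an endothelial transcript. It stood at 166, 250.01 and 253 CPM in the endothelium of tagged samples 1, 2 and 3, and at 3.18, 6.11 and 5.94 in mesoderm. Erythroid cells had 0.232, 3.64 and 0.357, and endoderm 0.542, 0.496 and 0.392. The endothelial values lay far above those of each other class, with no overlap. The endothelium, 113 of 1740 kept cells, held 80.8% of all 1139 Igf1 UMIs. Igf1 was higher in endothelium than in endoderm by 8.69 ± 0.26 on the log2 scale (standard error, edgeR quasi-likelihood test, adjusted p = 2.99e-11). It was lower in mesoderm than in endothelium by a log2 difference of -5.54 ± 0.24 (adjusted p = 4.85e-09).

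Igf1 was also higher in mesoderm than in endoderm, by 3.13 ± 0.43 (adjusted p = 5.15e-05). That difference rests on 36 UMIs in mesoderm and 11 in endoderm. In each test Igf1 passed the low-count filter only through the class where it was higher, so it had to differ there. The mesoderm level was 2.36% of the endothelial one, where the 8 endothelial markers had a median of 1.57% in mesoderm and a range from 0 to 33.9%. Of the 46 Igf1 UMIs in erythroid cells, 32 were in 3 cells of tagged sample 2. Those cells had 0.0262%, 0.0335% and 0.0281% of their UMIs from the endothelium gate genes, under the limit of 0.04%. Igf1 was not tested between erythroid cells and endoderm because it did not pass the low-count filter.

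The receptor Igf1r was lowest in endoderm. Mesoderm had 70.95, 74.1 and 92.0 CPM, endothelium 55.8, 48.5 and 42.1, erythroid cells 43.5, 40.6 and 41.4, and endoderm 9.75, 5.35 and 6.01. Endothelium and erythroid cells overlapped, and the other neighbours in this order did not. Against endoderm, Igf1r was higher in mesoderm by 3.31 ± 0.19 (adjusted p = 3.23e-08), in endothelium by 2.76 ± 0.22 (adjusted p = 1.55e-07) and in erythroid cells by 2.84 ± 0.15 (adjusted p = 7.57e-09). All 3 tagged samples showed these directions. Erythroid cells, the most numerous class, held 46.3% of the 2845 Igf1r UMIs.

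Mesoderm and endothelium differed less in Igf1r. The level was higher in mesoderm by 0.56 ± 0.15 (adjusted p = 0.0118). The call was lost without tagged sample 2 (0.58, adjusted p = 0.0685), without tagged sample 3 (0.37, adjusted p = 0.174) and with the gate shares halved (0.15, adjusted p = 0.628). The 18 mesoderm cells with trophoblast markers had 15.1 ± 2.12 CPM of Igf1r (SD, n = 3) and the other mesoderm cells 86.9 ± 8.89. The first value rests on only 7, 2 and 2 UMIs in tagged samples 1, 2 and 3.

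**Figure D1:**
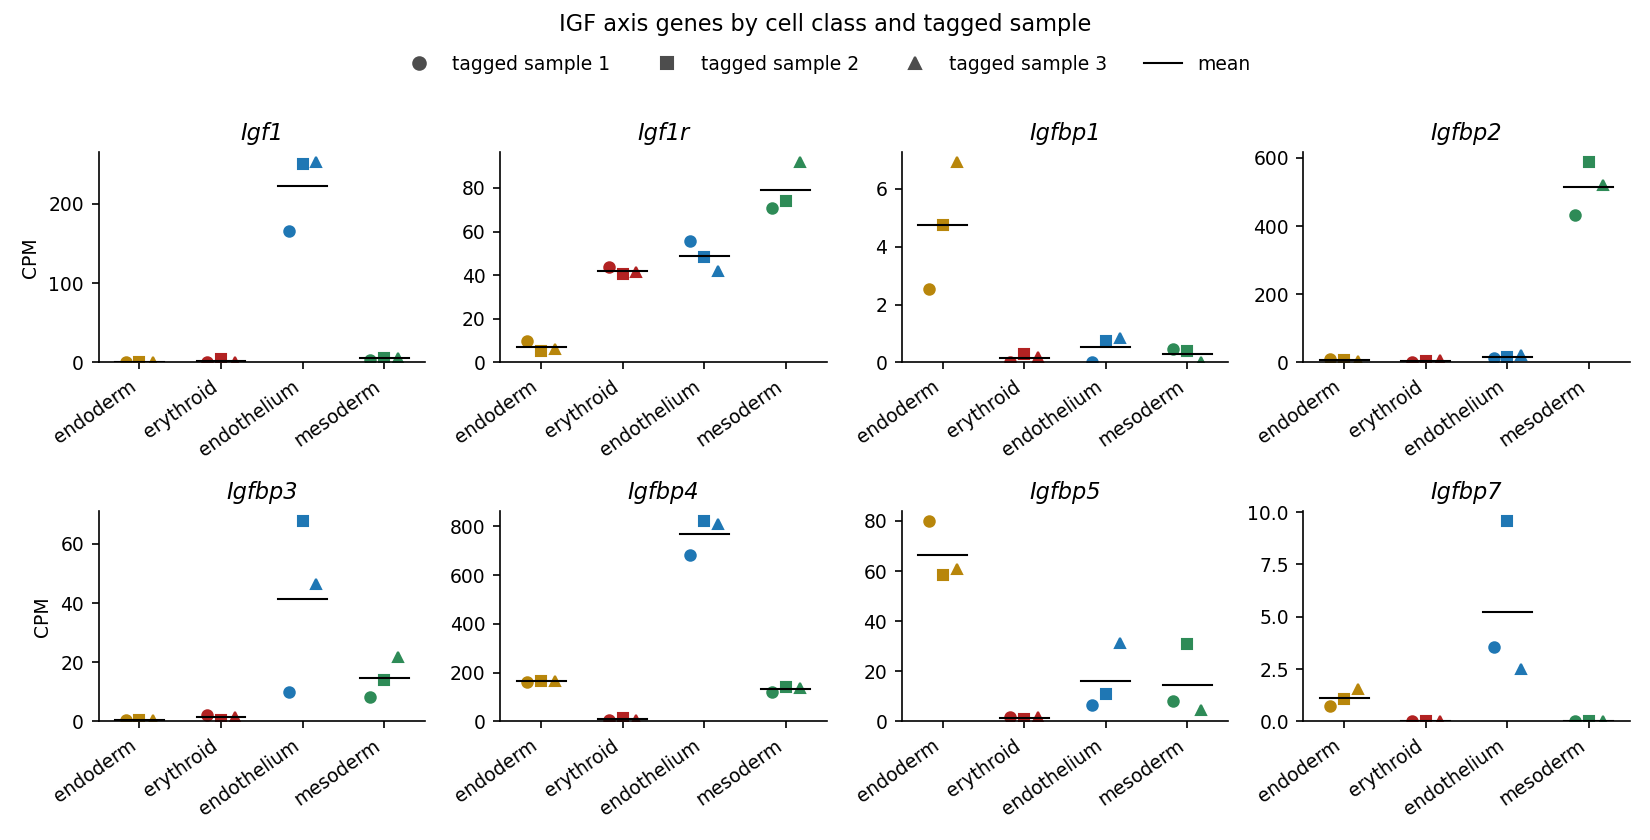
CPM of each gene (vertical axis, linear, own scale per panel) in the 4 cell classes. Each symbol is a tagged sample and each line the mean of 3: Igf1 and Igfbp4 stood highest in endothelium, Igfbp2 in mesoderm, and Igfbp5 and Igfbp1 in endoderm.

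Igfbp2, a binding protein abundant in fetal serum, was a mesoderm transcript. Mesoderm had 433, 587 and 520.2 CPM. Endothelium had 11.9, 16.2 and 22.7, endoderm 8.67, 7.64 and 3.00, and erythroid cells 2.08, 3.17 and 5.54. The mesoderm class was separated from every other class by a wide gap, and it held 80.8% of the 4483 Igfbp2 UMIs. Igfbp2 was higher in mesoderm by 6.1 ± 0.24 against endoderm (adjusted p = 1.78e-09) and by 4.84 ± 0.19 against endothelium (adjusted p = 2.01e-09).

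Within the mesoderm class, 178 of 197 cells had an Igfbp2 UMI, with a median of 16 per cell and quartiles of 10 and 24. The 18 cells with trophoblast markers had only 6 Igfbp2 UMIs between them, 4.14 ± 7.17 CPM (SD, n = 3). The remaining 179 mesoderm cells had 575 ± 43.8. The level of Igfbp2 thus differed widely among cells of the same gate.

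In the other classes Igfbp2 stood at 1.23% of its mesoderm level in endoderm, 0.828% in erythroid cells and 3.16% in endothelium. The 9 mesoderm markers had medians of 1.76%, 0.904% and 2.66% in those classes, so Igfbp2 lay close to them in all 3. Endothelium against endoderm gave a log2 difference of 1.28 ± 0.37 (adjusted p = 0.00942), which was lost without tagged sample 3 (0.66, adjusted p = 0.0931) and was 2.40 without Scrublet calls. Erythroid cells against endoderm gave -0.45 ± 0.37 (adjusted p = 0.288, 95% interval -1.18 to 0.28). Of 136 erythroid Igfbp2 UMIs, 52 came from a single cell of tagged sample 3. Scrublet called 20 endoderm and 22 erythroid cells as doublets. Without its calls, the endoderm level moved from 6.44 to 3.14 CPM and the erythroid difference changed sign, to 0.48 (adjusted p = 0.214). Other settings called Igfbp2 lower in erythroid cells: without tagged sample 3 (-1.31, adjusted p = 0.00328), with the gate shares halved (-0.82, adjusted p = 0.0152) and with thinned sums (-0.95, adjusted p = 0.0386).

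Igfbp4, the binding protein cleaved by the protease PAPP-A, was high in 3 classes and low in erythroid cells. Endothelium had 681, 821 and 809 CPM, endoderm 161, 168 and 167, and mesoderm 120, 142 and 138. Erythroid cells had 4.63, 12.7 and 6.91. No 2 classes overlapped. Igfbp4 was higher in endothelium than in endoderm by 2.12 ± 0.09 (adjusted p = 7.41e-10), and lower in mesoderm than in endothelium, with -2.65 ± 0.10 (adjusted p = 1.78e-09). Every endothelial cell, 113 of 113, had an Igfbp4 UMI, with a median of 25 per cell.

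Mesoderm lay slightly below endoderm for Igfbp4, with a log2 difference of -0.54 ± 0.09 (adjusted p = 0.000266). The size of this difference depends on scaling. Scaling by library size moved the median of all genes in this comparison by 0.23, and Igfbp4 kept its direction. Without the trophoblast-marked cells, the mesoderm mean moved from 133 to 147 CPM, and the difference kept its direction. Erythroid cells lay below endoderm by a log2 difference of -4.05 ± 0.21 (adjusted p = 4.46e-09). Their level was 1.12% of the endothelial one, where endothelial markers had a median of 0.735%. Igfbp4 in endoderm (21.8%) stood above every one of those markers there, with a median of 0.891% and a highest value of 9.15%. In mesoderm Igfbp4 (17.5%) stood above their median of 1.57% but inside their range, which reached 33.9%.

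Igfbp5, which also binds extracellular matrix, was highest in endoderm. Endoderm had 79.8, 58.3 and 61.0 CPM. Mesoderm had 8.19, 30.9 and 4.66, endothelium 6.53, 11.03 and 31.1, and erythroid cells 1.85, 0.840 and 1.79. Endoderm lay above all others, and mesoderm and endothelium overlapped. Igfbp5 was lower than in endoderm in mesoderm (-2.37 ± 0.39, adjusted p = 0.000218), endothelium (-2.21 ± 0.32, adjusted p = 5.78e-05) and erythroid cells (-5.25 ± 0.20, adjusted p = 3.52e-10). In the erythroid comparison Igfbp5 passed the low-count filter only through endoderm, so that p-value adds no support. Its neighbour Igfbp2, whose promoter is shown above beside that of Igfbp5, had the opposite order between mesoderm and endoderm.

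In mesoderm 27 of 197 cells had any, and 53 of 105 UMIs were in 3 cells of tagged sample 2. The cell with the most, 28, also had 1231 UMIs of the contractile genes Myl7, Actc1 and Tnnt2. Without tagged sample 2 the mesoderm difference from endoderm was -3.64. In endothelium, the 21 cells with blood progenitor markers had 40.0 ± 17.8 CPM of Igfbp5 (SD, n = 3) and the other 92 cells 10.8 ± 11.2. Mesoderm against endothelium gave -0.17 ± 0.65 for Igfbp5 (adjusted p = 0.868, 95% interval -1.44 to 1.10). That value was 1.10 without tagged sample 3, 0.54 without the cells with blood progenitor markers, and -1.55 with the gate shares doubled (adjusted p = 0.0179).

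Igfbp3, the main carrier of IGFs in adult serum, was found in endothelium and mesoderm. Endothelium had 10.1, 67.6 and 46.3 CPM and mesoderm 8.19, 13.8 and 21.6. Erythroid cells had 2.08, 0.654 and 1.37, and endoderm 0.361, 0.595 and 0.392. Tagged sample 1 was low in endothelium and fell among the mesoderm values. Against endoderm, Igfbp3 was higher in endothelium by 6.23 ± 0.64 (adjusted p = 2.23e-06) and in mesoderm by 4.65 ± 0.44 (adjusted p = 2.19e-06). The endoderm side of both comparisons was 11 UMIs. Igfbp3 passed the low-count filter there only through the other class, so it had to differ.

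Between mesoderm and endothelium, Igfbp3 differed by -1.57 ± 0.51 (adjusted p = 0.028), lower in mesoderm in 3 of 3 tagged samples although the ranges overlapped. With the tagged sample as a block, the adjusted p was 5.84e-05. DESeq2 did not make the call (-1.62, adjusted p = 0.129), and it was lost without tagged sample 2 (-0.97, adjusted p = 0.291) and without tagged sample 3 (-1.85, adjusted p = 0.103). The Igfbp3 UMIs of endothelium were unevenly spread, with 50 of 164 in 3 cells of tagged sample 2. Of 48 endothelial cells with an Igfbp3 UMI, 47 also had an Igf1 UMI, where 108 of all 113 did. Igfbp3 did not pass the low-count filter between erythroid cells and endoderm, where the pooled ratio was 2.59 (exact 95% counting interval 1.30 to 5.62).

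Igfbp1, a liver-type binding protein that responds to insulin in the adult, was sparse and, among the classes, highest in endoderm. Endoderm had 2.53, 4.76 and 6.92 CPM, from 115 UMIs. The erythroid class held 6 UMIs, endothelium 2 and mesoderm 2. Endoderm lay above every other class in all 3 tagged samples. The pooled level in endoderm was 26.2 times that of erythroid cells (exact 95% counting interval 11.7 to 72.8), 17.3 times that of mesoderm (4.69 to 145) and 10.5 times that of endothelium (2.83 to 87.4). These intervals cover counting error only. The edgeR test called Igfbp1 lower in erythroid cells (-4.39 ± 0.55, adjusted p = 1.44e-05) and in mesoderm (-4.20 ± 0.76, adjusted p = 0.000453). Igfbp1 passed the low-count filter only through endoderm, so it had to differ there and these p-values add no support.

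The cells set apart by Cyp26a1 held more Igfbp1 UMIs than the whole endoderm class, 137 of 265. Their level was 28.7, 5.26 and 2.98 CPM in tagged samples 1, 2 and 3, so tagged sample 1 stood far above the other two. Only 21 of these 159 cells had an Igfbp1 UMI, and 83 of the 137 UMIs were in 3 cells of tagged sample 1. The cell with the most, 33, had 1.13% of its UMIs from the endoderm gate genes. The next, with 28 and 22, had 0.256% and 0.263%, under the limit of 0.3%. With the set-apart cells kept in the class whose gate they passed, endoderm held 192 Igfbp1 UMIs. Igfbp5 stood at 63.1, 57.2 and 56.5 CPM in the set-apart cells, in 138 of 159 of them, near its endoderm values. Igfbp4 was at 129, 143 and 187 CPM, on either side of its endoderm range.

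Igfbp7 was at the limit of detection. Endothelium had 3.56, 9.56 and 2.53 CPM, from 22 UMIs, and endoderm 0.722, 1.09 and 1.57, from 27 UMIs. Erythroid cells and mesoderm had none, which allows up to 0.0943 and 0.428 CPM. Endothelium lay above endoderm in 3 of 3 tagged samples, with a pooled ratio of 4.48 (exact 95% counting interval 2.43 to 8.17). Against the limit of 3 counts over a class, endothelium was at least 12.2-fold higher than mesoderm, and endoderm at least 12.3-fold higher than erythroid cells. Igfbp7 passed the low-count filter in none of the 4 comparisons, so no test was made.

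Of the 8 genes, 7 passed the low-count filter in mesoderm against endoderm. Igf1, Igf1r, Igfbp2 and Igfbp3 were higher in mesoderm and Igfbp1, Igfbp4 and Igfbp5 lower, where 62.8% of all 10466 genes tested were called, 30.3% higher and 32.5% lower. In endothelium against endoderm 6 were tested, of which 5 were higher and Igfbp5 lower, beside 59.8% of 10160 genes, 29.6% higher and 30.2% lower. In erythroid cells against endoderm 5 were tested, with Igf1r higher and Igfbp1, Igfbp4 and Igfbp5 lower, beside 77.1% of 10852 genes, 36.1% higher and 41% lower. In mesoderm against endothelium 6 were tested, with Igf1r and Igfbp2 higher and Igf1, Igfbp3 and Igfbp4 lower, beside 35.8% of 9092 genes, 16.2% higher and 19.6% lower. Genes that passed the filter only through a class where they were high had to differ, so these counts say little about the group. The comparisons with endoderm share the endoderm sums.

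**Figure D2:**
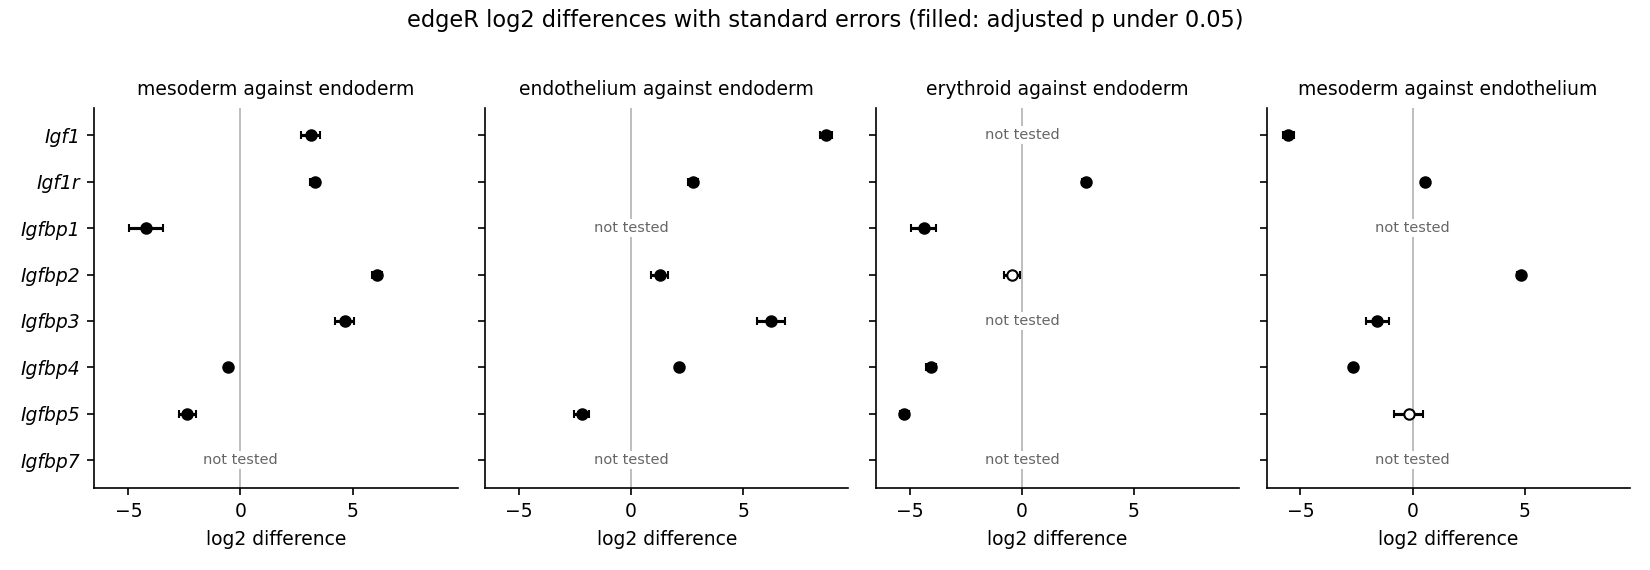
edgeR log2 differences (horizontal axis) of each gene in 4 comparisons, with bars of 1 standard error; filled points passed an adjusted p of 0.05, and open points did not. Igf1r lay to the right of 0 in all 4 panels, and Igfbp5 to the left in the 3 comparisons with endoderm.

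Shares of cells with a UMI were read after each cell was thinned to 20000 UMIs, since depth differed between the classes. This left out 47 endoderm, 13 erythroid, 31 endothelium and 25 mesoderm cells. Igf1 was then seen in 93.9% of 82 endothelial cells (exact 95% interval 86.3 to 98.0), 6.98% of 172 mesoderm cells, 1.61% of 372 endoderm cells and 0.649% of 616 erythroid cells. Without thinning the shares were 95.6%, 14.2%, 2.63% and 2.70%.

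Igf1r was seen in 75.6% of thinned mesoderm cells (68.5 to 81.8), 57.3% of endothelial cells (45.9 to 68.2), 54.7% of erythroid cells (50.7 to 58.7) and 10.5% of endoderm cells (7.56 to 14.1). Igfbp2 was seen in 91.3% of thinned mesoderm cells (86.0 to 95.04), against 18.3% in endothelium, 6.99% in endoderm and 5.03% in erythroid cells. Igfbp5 was seen in 68.3% of thinned endoderm cells (63.3 to 73.0), against 23.2% in endothelium, 11.05% in mesoderm and 2.11% in erythroid cells. Igfbp4 was seen in 100% of endothelial, 97.6% of endoderm, 88.4% of mesoderm and 11.5% of erythroid cells. In thinned endoderm cells, Igfbp4 and Igfbp5 were found together in 249 of 372 cells. The intervals treat cells as independent and cover counting error only.

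**Figure D3:**
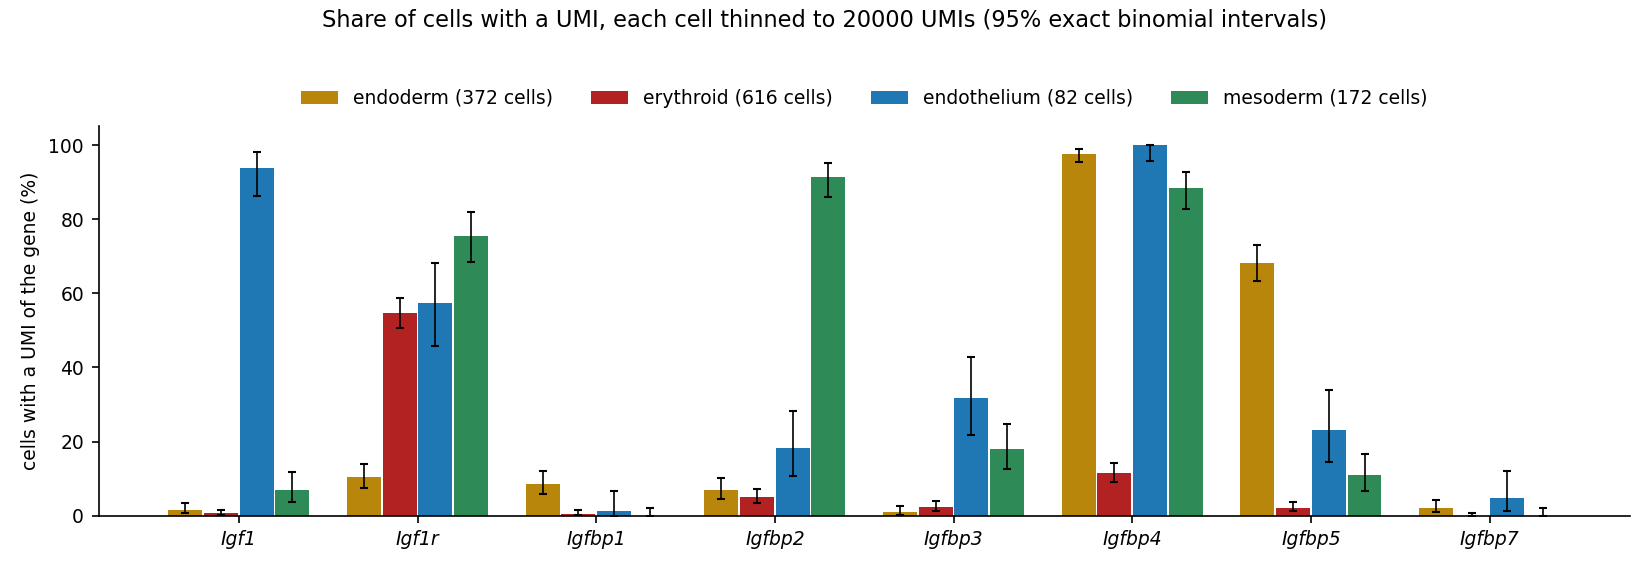
Percent of cells (vertical axis) with a UMI of each gene after thinning to 20000 UMIs per cell, by class, with exact 95% binomial intervals. Igf1 was seen in 93.9% of endothelial cells and at most 6.98% of any other class, whereas Igfbp4 was seen in at least 88.4% of 3 classes.

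The level of each gene outside its highest class was set beside the levels of that class's markers there. Igf1r in erythroid cells (52.4% of its mesoderm level) and in endothelium (62.7%) lay above every mesoderm marker there, whose highest values were 4.12% and 29.6%. Igfbp5 in endothelium (23.1% of its endoderm level) lay above the highest endoderm marker there, at 3.07%. In mesoderm Igfbp5 (23.3%) lay inside the range of endoderm markers (2.01% to 39.3%). In erythroid cells Igfbp5 (2.30%) lay inside the range of endoderm markers (1.53% to 2.95%). Igf1 in endoderm (0.217% of the endothelial level) and in erythroid cells (0.665%) lay below the medians of endothelial markers there (0.891% and 0.735%). The part that RNA from other cells has in these low levels was not tested.

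**Figure D4:**
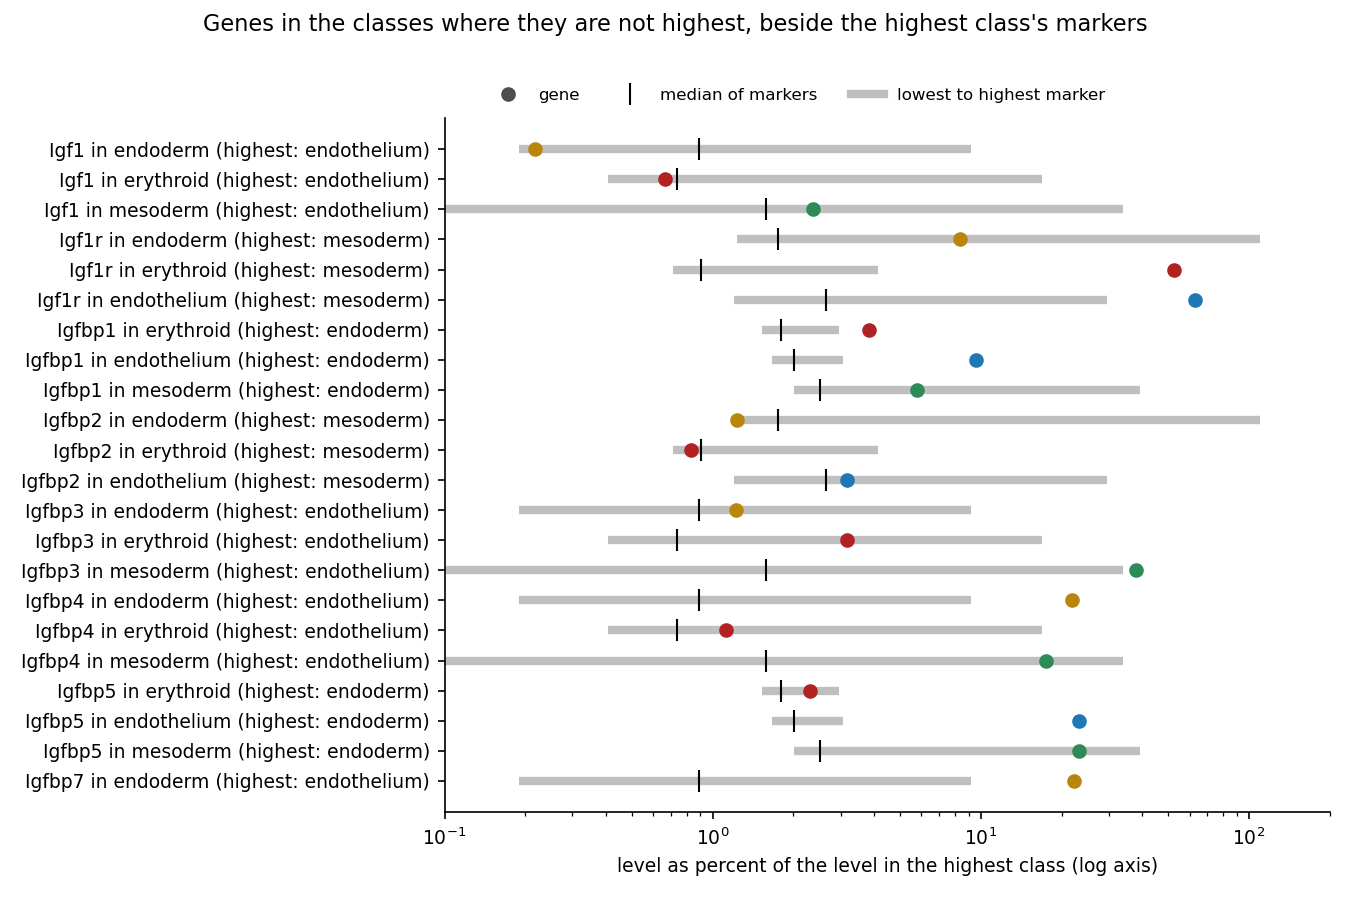
Each point is a gene's level in a class where it is not highest, as a percent of its level in its highest class (horizontal log axis); grey bars span the highest class's markers in the same class, bars reaching the left edge go down to 0, and ticks mark the medians. Igf1r in erythroid cells and endothelium lies right of the grey bars, Igfbp2 lies near the ticks, and Igf1 in endoderm lies near the left end of its bar; values of 0 are not drawn.

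The other 47 listed genes of the pathway, from ligands to signalling proteins, were all in the files. In mesoderm against endoderm 38 were tested, and 11 were higher and 10 lower, 55.3% in all beside 62.8% of all genes. Their median log2 difference was 0.07, and that of all genes tested was -0.02. In endothelium against endoderm 12 of 36 were higher and 12 lower, 66.7% in all beside 59.8%, with a median of -0.14 beside -0.01. In erythroid cells against endoderm 11 of 38 were higher and 15 lower, 68.4% beside 77.1%, with a median of -0.14 beside -0.04. In mesoderm against endothelium 7 of 35 were higher and 9 lower, 45.7% beside 35.8%, with a median of -0.04 beside 0.02.

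Irs1 and Igfbp6 were among the genes of that list that differed most between mesoderm and endoderm. Irs1, an adaptor that binds the activated receptor, stood at 9.10, 6.92 and 7.21 CPM in mesoderm and 0.361, 0.297 and 0.131 in endoderm (4.54 ± 0.42, adjusted p = 1.95e-06). It was higher in mesoderm in every tagged sample. Igfbp6, a binding protein that prefers IGF2, was lower in mesoderm, at 0, 1.22 and 0.424, than in endoderm, at 6.32, 9.22 and 9.14. Its log2 difference was -4.04 ± 0.53 (adjusted p = 3.47e-05). Irs1 had 6 UMIs in all of endoderm, and Igfbp6 had 4 in all of mesoderm. Both passed the low-count filter only through the class where they were high, and both were chosen for large called differences. Their p-values therefore add no support.

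A few other genes of the list were named after their values were seen, so their p-values add no support. Irs2, a second receptor adaptor, was at 46.1, 38.2 and 37.1 CPM in erythroid cells and 12.5, 9.82 and 9.66 in endoderm (2.14 ± 0.12, adjusted p = 1.26e-08). Igf2r, which clears IGF2 from the cell surface, was at 14.6, 15.6 and 16.0 in erythroid cells and 111, 88.4 and 89.3 in endoderm (-2.40 ± 0.10, adjusted p = 7.87e-10). Igf2 itself read 52.3, 59.0 and 62.3 in mesoderm and 12.8, 13.1 and 11.9 in endoderm (1.964 ± 0.13, adjusted p = 1.16e-07). Its level is uncertain, because the annotated gene Gm49394 overlaps it on the same strand and reads they share cannot be told apart here.

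Genes whose levels followed those of a member most closely were ranked by Pearson r over the 12 sums of 4 classes and 3 tagged samples. The sums share libraries and depth, and r mainly reads differences between classes. For Igf1 they were Kdr (0.994), Nes (0.993) and Gap43 (0.988), and 47 of 4953 genes reached 0.95. For Igf1r they were E2f5, Rhobtb3 and Cbx5 (0.992 to 0.986), with 69 genes at 0.95. For Igfbp2 they were Acta2 (0.997), Col5a2 (0.989) and Tdo2 (0.988), with 26 genes. Igfbp4 had Ralb, Clic1 and Cpd (0.997, 0.991 and 0.98977, with 106 genes), and Igfbp3 had Arhgdib, Ppp1r11 and Anxa3 (0.972 to 0.961, 10 genes). For Igfbp5 the closest were Hsbp1, Washc5 and Bloc1s1 (0.956 to 0.952), and no others reached 0.95. Igfbp1 and Igfbp7 averaged under 10 CPM and were not ranked.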

How the data were processed

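Single cells of yolk sacs were measured with 10x droplets and CellPlex tags, per the labels' protocols. The deposited values are raw UMI counts per gene and cell, with no normalization. Cell Ranger 6.1.2 wrote them, per the file headers. The submitters' processing notes name GRCm38, and no source used here gives how cells were assigned to tags. For each class, counts were added up within a tagged sample, and levels are CPM of those sums. The gates use genes other than the 8 described. Tests used edgeR 4.0.16 in R 4.3.3 (trimmed mean of M-values, filterByExpr, glmQLFit, glmQLFTest, two-sided, Benjamini-Hochberg over all genes tested, threshold 0.05) on 3 sums per class. They were tested on simulated data. The 95% intervals of log2 differences are the normal approximation from the standard error. DESeq2 1.42.0, another scaling, no filter, other gates and cell filters, Scrublet in scanpy 1.11.5, thinned sums and each tagged sample left out were alternatives. Each tagged sample gave a sum to every class, which pairs the sums by number. Their deviations correlated by 0.00113 to 0.149 across genes. Precision is limited by the 3 tagged samples and, for Igfbp1 and Igfbp7, by counts. The genes, lists and rules were chosen with earlier results of these data known. The 8 genes were named as listed. For each with a mean of 10 or more CPM, the 3 genes most alike by Pearson r of log2(CPM + 1) were named, among genes averaging 20 or more. Of the pathway list, the 3 largest called differences between mesoderm and endoderm were chosen, and a gene among them is not reported here.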

Additional observations from a re-analysis of the deposited data

How the results depend on the processing

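Of 415 recomputed log2 differences of the 8 genes, 401 kept their direction and side of the threshold, 7 lost the call, 4 gained it and 3 changed sign. The sign changes were Igfbp2 in erythroid cells against endoderm without Scrublet calls (0.48), and Igfbp5 in mesoderm against endothelium without tagged sample 3 and without cells with blood progenitor markers (0.54). Leaving out a tagged sample gave the latter a range from -1.60 to 1.10. Of 210 counts of calls, 207 stayed within 1.5 times. The number of the 8 genes called in erythroid cells against endoderm went from 4 to 7 with no low-count filter. In mesoderm against endothelium it ranged from 3 to 5 when a tagged sample was left out. Of 248 mean levels 12 moved by more than their SD, of 50 pooled ratios 4 left their interval, and of 64 shares of cells 47 left their interval on thinning. With the tagged sample as a block, the 4 comparisons again had 7, 6, 4 and 5 of the 8 genes called, Igfbp3 in mesoderm against endothelium reached an adjusted p of 5.84e-05, and no call changed. Scaling by library size moved the median of all genes by 0.23 in mesoderm against endoderm, 0.10 in endothelium against endoderm, -0.22 in erythroid cells against endoderm and 0.12 in mesoderm against endothelium. The share of calls that were higher went from 48.3% to 62.2% in mesoderm against endoderm from 45.3% to 58.4% in mesoderm against endothelium, from 49.5% to 54.6% in endothelium against endoderm and from 46.8% to 37.3% in erythroid cells against endoderm, and none of the 8 genes changed direction. Igf1 in mesoderm against endoderm had too few counts to be tested with the gates halved or with thinned sums, as had Igfbp1 in several alternatives. The alternatives without trophoblast-marked, blood progenitor-marked or contractile cells were chosen after seeing the data.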
